A study of Mus musculus with 6 samples.

Results

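The cytochrome P450 genes transcribed in inguinal white adipose tissue (iWAT) were compared between Cebpa_ASKO and Cebpa_fl/fl mice. Members were all gene symbols in the deposited gene table with the form of a P450 family name (Cyp, a family number, subfamily letters and a gene number) and a mean TPM of at least 0.1 over the 6 libraries. TPM is a length-normalised share of a library's transcripts, so levels of different genes can be compared on it. Of the 36144 symbols in the table, 94 had this form, 59 of those had a TPM above 0 in at least 1 library, and 35 were members, from 26 subfamilies and 12 families.

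The RNA came from whole iWAT, with lymph nodes removed, of 10-week-old female mice on a C57BL6/J background that were fed ad libitum. All mice carried floxed *Cebpa* alleles, and *Cebpa* encodes the adipocyte transcription factor C/EBPα. The 3 Cebpa_fl/fl mice (Cebpa_fl/fl;AdipoQ-Cre-) had no Cre transgene. The 3 Cebpa_ASKO mice (Cebpa_fl/fl;AdipoQ-Cre+) carried Cre driven by the *Adipoq* promoter, which acts late in adipocyte differentiation. Cells of the depot other than adipocytes are thus expected to keep *Cebpa*, which libraries of whole tissue cannot show. Each mouse gave 1 poly-A RNA-seq library, and all were labelled as 1 batch. The libraries held 46237121, 46601320 and 49477671 estimated counts in Cebpa_fl/fl and 33141769, 37957065 and 42243013 in Cebpa_ASKO. Every Cebpa_ASKO library was thus shallower than every control library, and raw counts given below are not corrected for this. CPM values below are counts divided by library size and edgeR's TMM factors, and were used to compare 1 gene between libraries. *Cebpa* stood at 448, 465 and 498 CPM in Cebpa_fl/fl and at 37.7, 45.8 and 37.2 CPM in Cebpa_ASKO libraries, a log2 fold change of -3.55 (SE 0.131, adjusted p = 0.000163). All 10 adipocyte markers were detected, and their summed level ran from 28658 to 35802 CPM in Cebpa_fl/fl and from 7974 to 9732 CPM in Cebpa_ASKO, with 6 of 10 called lower. Over all tested genes, edgeR called 3.84% lower and 1.39% higher, and 19.8% had an unadjusted p below 0.05 in either direction. DESeq2 called 6.33% of its genes lower and 3.72% higher. Other marker lists also moved with genotype. Skeletal muscle markers summed to between 498 and 671 CPM in Cebpa_fl/fl and between 1656 and 4747 CPM in Cebpa_ASKO, with 8 of 10 called higher, and mammary epithelium markers to between 698 and 1502 CPM against 2016 to 2143 CPM, with 0 of 11 tested called in edgeR (8 higher at an unadjusted p below 0.05, 5 in DESeq2). Macrophage markers (1034 to 2805 CPM against 1690 to 2287 CPM) and fibroblast and progenitor markers (6779 to 11970 CPM against 8106 to 9971 CPM) overlapped between genotypes, with 0 of 8 called in each by either tool and none at an unadjusted p below 0.05. Endothelial markers summed to between 309 and 376 CPM against 208 to 293 CPM, with *Emcn* and *Cldn5* called lower. Lymphocyte markers were highest in Cebpa_fl/fl 1, at 377 CPM, and ran from 38.0 to 76.6 CPM in the other libraries, with 0 of 7 tested called in edgeR (5 lower at an unadjusted p below 0.05, 2 in DESeq2). The part of these marker shifts in the differences below was not tested.

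Cytochromes P450 are heme enzymes that insert an oxygen atom into small hydrophobic molecules. Microsomal members receive electrons from the reductase POR and from cytochrome b5, mitochondrial members from the ferredoxin FDX1. Families 1 to 3 are best known for oxidation of drugs, toxicants and solvents in the liver, family 4 and the 2j and 2u subfamilies for oxidation of fatty acids and eicosanoids, and the others for defined steps in sterol, steroid, retinoid and vitamin D metabolism. Many are also transcribed outside the liver, and adipose tissue is a known site of *Cyp2e1* expression.

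A single gene, *Cyp2e1*, made up most of the P450 transcripts of control iWAT, and its level was lower in every Cebpa_ASKO library. *Cyp2e1* (chr7:140763739-140774987, plus strand, GRCm38), which encodes an enzyme that oxidises ethanol, acetone and other small solvents, had a TPM of 1032, 2226 and 1242 in the Cebpa_fl/fl libraries. Its TPM was 235, 191 and 608 in the Cebpa_ASKO libraries. The genotypes did not overlap, Cebpa_fl/fl 2 was the highest library and Cebpa_ASKO 3 the highest of its genotype. The mean TPM was 1500 ± 638 (SD, n = 3) in Cebpa_fl/fl and 345 ± 229 (SD, n = 3) in Cebpa_ASKO. Among all symbols ranked by TPM, *Cyp2e1* stood 106th, 39th and 67th in the control libraries and 462nd, 557th and 213th in the Cebpa_ASKO libraries. On the CPM scale the log2 fold change was -2.19 (SE 0.481), which left Cebpa_ASKO at 21.9% of the control mean, and the adjusted p of 0.0532 just missed the threshold of 0.05. The gene passed that threshold in 5 of 15 alternative settings, among them DESeq2 (adjusted p = 7.57e-06) and the fit without Cebpa_ASKO 3 (log2 fold change -2.82, adjusted p = 0.0195). In bulk tissue, fewer cells of a type and less RNA per cell cannot be told apart. The fall of the adipocyte marker sum given above accompanied that of *Cyp2e1*, and its part in this difference was not tested. Hepatocyte markers, another list that moved, summed to between 45.4 and 51.4 CPM in Cebpa_fl/fl and between 4.65 and 32.0 CPM in Cebpa_ASKO. Of 6 tested, 3 were called lower, against 3.84% of all tested genes. *Fga* had 0 counts in every library, and *Ttr* and *Cps1* had 0 in every control library.

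The total P450 transcript level was lower in every Cebpa_ASKO library, and the difference lay in *Cyp2e1*. The 35 members summed to 1321, 2652 and 1607 TPM in Cebpa_fl/fl and to 606, 577 and 1033 TPM in Cebpa_ASKO. *Cyp2e1* supplied 78.1%, 83.9% and 77.3% of these sums in the controls and 38.8%, 33.2% and 58.8% in Cebpa_ASKO. In estimated counts, the members took 89687, 167243 and 106520 in Cebpa_fl/fl against 28985, 29693 and 58321 in Cebpa_ASKO. On the CPM scale the sums did not overlap (mean 2600 ± 829 against 995 ± 283, SD, n = 3 each), with a log2 ratio of -1.39. The exact two-sided permutation test gave p = 0.1, the smallest value that 3 against 3 libraries allow. Without *Cyp2e1* the other 34 members had a mean summed level of 557 ± 70.9 CPM in the controls and of 548 ± 32.3 CPM in Cebpa_ASKO mice (SD, n = 3 per genotype). That log2 ratio was -0.02 (exact permutation p = 0.9), and the libraries of the genotypes overlapped. The plot of summed TPM shows this split.

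**Figure D1:**
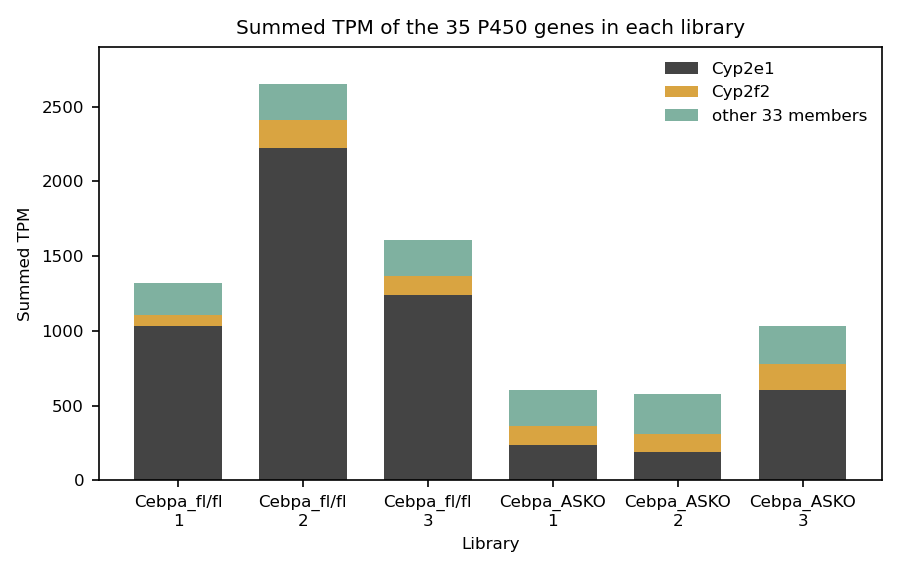
Stacked bars give the summed TPM of the 35 P450 genes in each of the 3 Cebpa_fl/fl and 3 Cebpa_ASKO libraries, divided into *Cyp2e1*, *Cyp2f2* and the other 33 genes. Bars reach 1321 to 2652 TPM in Cebpa_fl/fl and 577 to 1033 TPM in Cebpa_ASKO, and the difference lies in the *Cyp2e1* segment.

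Of the 35 members, 33 passed the filter on low counts and were tested. Of these, *Cyp4v3* and *Cyp2b10* were called lower and *Cyp2b19* was called higher in Cebpa_ASKO, with p adjusted over the whole table and a threshold of 0.05. That is 2 of 33 lower, where 3.84% of all 16069 tested genes were called lower, and 1 of 33 higher, where 1.39% were called higher. Unadjusted p-values were below 0.05 for 13 of 33 members, against 19.8% of all tested genes, and 7 had an adjusted p between 0.05 and 0.1, against 3.45% of all tested genes. DESeq2, which tested all 35, called 6 lower and 4 higher, where 6.33% of its 17870 genes were called lower and 3.72% higher. All Cebpa_ASKO libraries lay below all control libraries in 9 tested members (27.3%), against 13.2% of all tested genes. They lay above all control libraries in 6 members (18.2%), against 12.9% of all tested genes. Membership used the mean over both genotypes. *Cyp2b10*, called lower, had a group mean above 0.1 TPM only in Cebpa_fl/fl (0.621, against 0.0126 in Cebpa_ASKO). *Cyp4x1*, among the members lying above, had one only in Cebpa_ASKO (0.241, against 0.0681 in Cebpa_fl/fl). The member counts, here and by role below, are thus not independent of the membership rule. The median log2 fold change of the tested members was -0.08, with quartiles of -0.44 and 0.42, and that of all tested genes was 0.02.

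**Figure D2:**
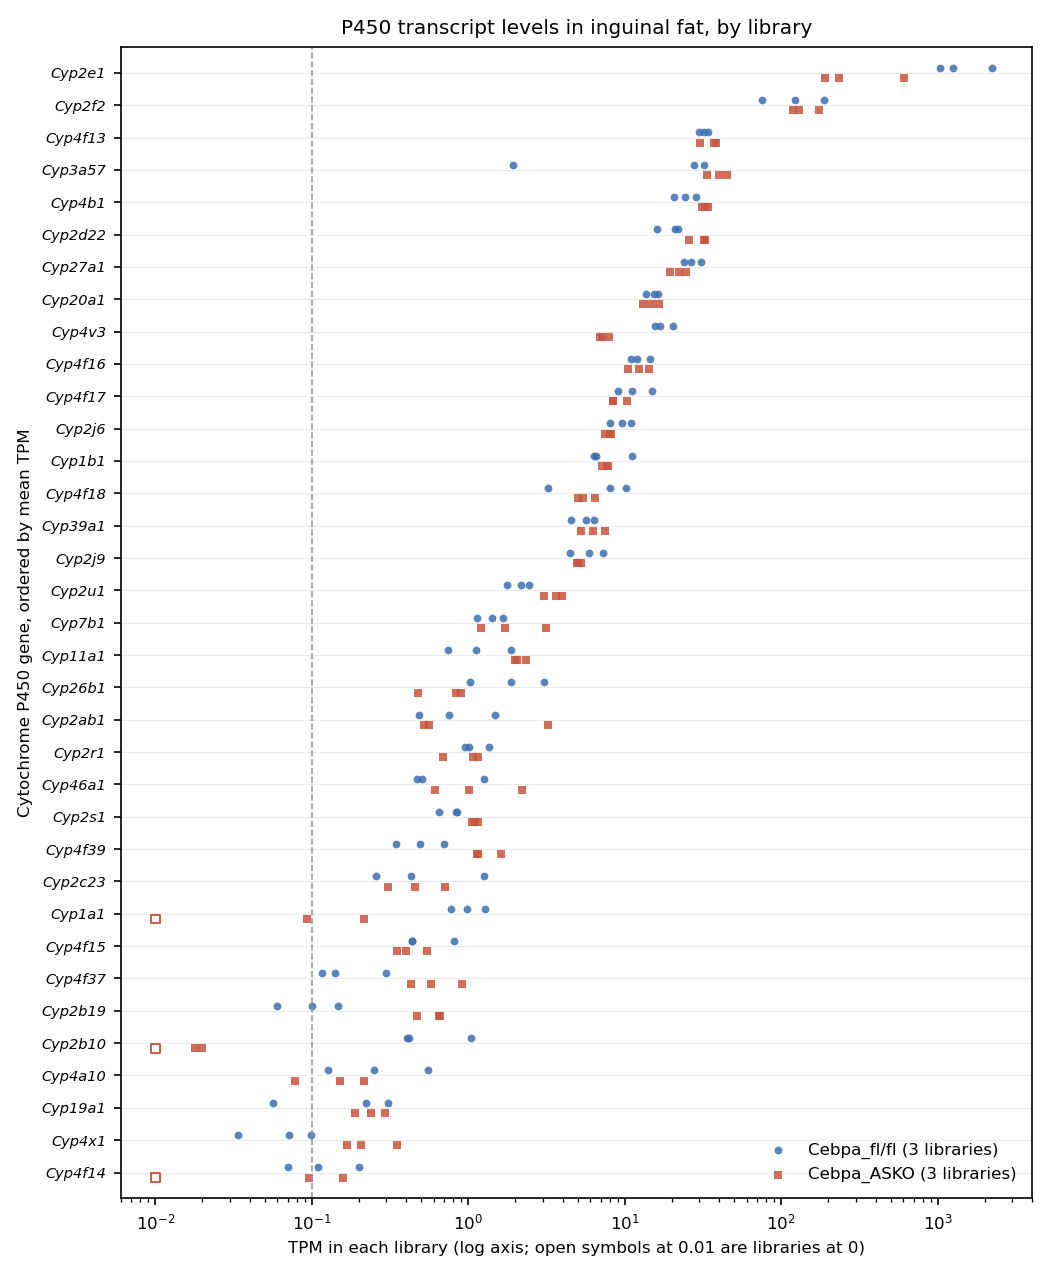
Each row is 1 of the 35 P450 genes, ordered by mean TPM, and each point is the TPM of 1 library on a log axis (circles, 3 Cebpa_fl/fl libraries; squares, 3 Cebpa_ASKO libraries; open symbols, libraries at 0). The dashed line marks the membership limit of 0.1 TPM. *Cyp2e1* and *Cyp2f2* lie apart at the top, and the separated genotypes of *Cyp1a1*, *Cyp2b10* and *Cyp2b19* lie near the bottom.

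*Cyp4v3* was lower by a similar amount in every Cebpa_ASKO library. It encodes a fatty acid hydroxylase whose human counterpart is mutated in a crystalline retinal dystrophy, and it lies on the minus strand at chr8:45304944-45333216 (GRCm38). Its TPM was 16.7, 20.4 and 15.6 in Cebpa_fl/fl and 7.87, 6.98 and 7.10 in Cebpa_ASKO. The 2 groups of libraries were far apart relative to the spread within either. The CPM mean fell from 53.8 ± 6.01 to 21.7 ± 3.30 (SD, n = 3 each), or to 40.3% of the control mean, with a log2 fold change of -1.31 (SE 0.139, adjusted p = 0.00387). It was called lower in the 15 alternative settings that gave it a value. All its counts came from 1 protein-coding transcript.

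*Cyp2b10* and *Cyp2b19* belong to 1 subfamily, lie in the same cluster on chromosome 7 and moved in opposite directions. *Cyp2b10* (chr7:25897620-25926624, plus strand) is the phenobarbital-inducible P450 of mouse liver. It had 73, 26 and 28 counts in Cebpa_fl/fl and 0, 1 and 1 counts in Cebpa_ASKO, or 1.04, 0.415 and 0.407 TPM against 0, 0.0199 and 0.0179 TPM. Its transcripts were thus almost absent from every Cebpa_ASKO library. The pooled counts of 127 against 2 correspond to a library-size-corrected ratio of 52.6 (95% exact interval 14.3 to 439, which covers counting error only). The fitted log2 fold change of -5.52 (SE 0.826, adjusted p = 0.0142) depends on how counts at or near 0 are handled. Leaving out Cebpa_ASKO 1, 2 or 3 raised the adjusted p to 0.0710, 0.0719 and 0.0504. The control counts came almost entirely from 1 transcript, ENSMUST00000072438.12, which had 0 counts in all Cebpa_ASKO libraries.

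*Cyp2b19* (chr7:26757142-26772630, plus strand), known as an arachidonic acid epoxygenase of keratinocytes, was low everywhere. It had 12, 5 and 9 counts in Cebpa_fl/fl and 26, 22 and 38 counts in Cebpa_ASKO, or 0.147, 0.0596 and 0.10 TPM against 0.663, 0.471 and 0.646 TPM. No control library reached the lowest Cebpa_ASKO library. The log2 fold change was 1.98 (SE 0.422, adjusted p = 0.0486), and leaving out Cebpa_fl/fl 1, 2 or 3 or Cebpa_ASKO 1, 2 or 3 ended the call, with adjusted p of 0.0792, 0.0849, 0.124, 0.174, 0.114 and 0.129. Its protein-coding transcript supplied 49.3% of the counts and retained-intron transcripts the remainder. Keratinocyte and skin markers summed to between 9.01 and 16.4 CPM in Cebpa_fl/fl and between 16.2 and 21.6 CPM in Cebpa_ASKO. Of 4 tested, 0 were called by either tool, and 1 had an unadjusted p below 0.05, against 19.8% of all tested genes. *Flg* had no more than 1 count in any library. The part of these markers in the difference of *Cyp2b19* was not tested. Reads shared by genes as similar as *Cyp2b10* and *Cyp2b19* are divided by estimation. The summed *Cyp2b* subfamily did not pass the test (log2 fold change -0.54, SE 0.466, adjusted p = 0.605). Opposite changes offset each other in this sum, so it cannot show whether reads were divided wrongly.

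The sequences upstream of the called genes and of *Cyp2e1* are shown because C/EBPα binds DNA directly. Each window is the part of the 250 bases before the RefSeq start (GRCm38.p6) that holds no annotated exon, and capitals mark matches to TTNNGCAA, a C/EBP-type core, searched on both strands. The windows are chr7:25897408-25897619 (plus strand), chr7:26756892-26757141 (plus strand), chr7:140763569-140763738 (plus strand) and chr8:45333217-45333413 (minus strand).
Cyp2b10: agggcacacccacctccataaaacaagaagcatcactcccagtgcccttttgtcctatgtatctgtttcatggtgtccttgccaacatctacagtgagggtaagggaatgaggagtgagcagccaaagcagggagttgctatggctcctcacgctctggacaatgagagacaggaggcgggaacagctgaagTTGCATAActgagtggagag
Cyp2b19: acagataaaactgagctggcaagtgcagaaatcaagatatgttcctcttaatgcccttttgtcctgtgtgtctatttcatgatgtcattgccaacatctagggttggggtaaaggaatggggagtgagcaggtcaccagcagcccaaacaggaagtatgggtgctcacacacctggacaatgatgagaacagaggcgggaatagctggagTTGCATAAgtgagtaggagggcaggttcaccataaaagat
Cyp2e1: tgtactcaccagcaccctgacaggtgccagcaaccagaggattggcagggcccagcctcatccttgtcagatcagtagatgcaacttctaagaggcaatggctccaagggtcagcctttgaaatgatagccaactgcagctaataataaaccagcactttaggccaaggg
Cyp4v3: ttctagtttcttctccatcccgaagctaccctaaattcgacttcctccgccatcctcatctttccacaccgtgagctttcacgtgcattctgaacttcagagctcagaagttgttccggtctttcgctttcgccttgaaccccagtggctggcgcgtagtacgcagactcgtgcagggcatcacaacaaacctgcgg

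Both *Cyp2b* windows held 1 match with the same letters, TTGCATAA. It began 58 bases before the RefSeq start of *Cyp2b10* and 40 bases before that of *Cyp2b19*, so the gene that fell and the gene that rose shared it. A global alignment of the whole 250-base windows gave 186 identical positions, 39 mismatches and 50 gaps, an identity of 67.6%. The *Cyp2e1* and *Cyp4v3* windows held no match. Over the whole 250 bases before the start, exons included, 6 of the 27 members with a sequence held TTNNGCAA (*Cyp11a1*, *Cyp20a1*, *Cyp2b10*, *Cyp2b19*, *Cyp2j9* and *Cyp4f14*), against 9.56% of all 32851 sequences of this length. The core of the dioxin response element, GCGTG, was found in 11 of 27, *Cyp1a1* among them, against 28.2% of all sequences, and TATAAA in 4 of 27 (*Cyp19a1*, *Cyp1a1*, *Cyp26b1* and *Cyp2e1*), against 12.4%. The TATAAA of *Cyp2e1* lies outside the window printed above. None of these matches overlapped a match to TTNNGCAA in the windows shown. Members were counted if any of their sequences matched, whereas the shares are per sequence, so they are not the same measure. A match is a description of letters and not a measured binding site.

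Members were assigned to roles by family and subfamily number. Families 1 to 3, without the 2j, 2r and 2u subfamilies, held 11 members, grouped as xenobiotic and small-molecule oxidisers. *Cyp2b19*, described above as an arachidonic acid epoxygenase, is counted there. Of the 11, 1 was called lower and 1 higher in edgeR, against 3.84% and 1.39% of all tested genes. At an unadjusted p below 0.05, 3 were lower and 2 higher, against 19.8% of all tested genes in either direction. DESeq2 called 3 lower and 2 higher, against 6.33% and 3.72% of its genes. In 3 the Cebpa_ASKO libraries lay all below and in 3 all above the controls, against 13.2% and 12.9% of all tested genes. *Cyp1a1* (chr9:57687928-57703824, plus strand), the classic target of the aryl hydrocarbon receptor, had 77, 91 and 123 counts in Cebpa_fl/fl and 0, 7 and 18 counts in Cebpa_ASKO. The genotypes did not overlap, and the TPM ran from 0.781 to 1.27 in the controls and from 0 to 0.217 in Cebpa_ASKO. Pooled counts of 291 against 25 correspond to a library-size-corrected ratio of 9.63 (95% exact interval 6.40 to 15.1, counting error only). The fitted log2 fold change was -3.33 (SE 0.785), with an adjusted p of 0.0662 that missed the threshold, and DESeq2 gave an adjusted p of 0.000121. The receptor gene *Ahr* stood at 11.7 to 16.5 CPM in Cebpa_fl/fl and 15.8 to 19.3 CPM in Cebpa_ASKO (log2 fold change 0.37, adjusted p = 0.262), and its repressor gene *Ahrr* had a log2 fold change of -0.04 (adjusted p = 0.953).

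*Cyp2f2*, best known from the club cells of the airway, was second to *Cyp2e1* in level. Its TPM was 75.6, 188 and 122 in Cebpa_fl/fl and 129, 119 and 174 in Cebpa_ASKO, and the genotypes overlapped (log2 fold change 0.07, SE 0.291, adjusted p = 0.935). In Cebpa_ASKO, where *Cyp2e1* was lower, *Cyp2f2* supplied 16.8% to 21.3% of the summed P450 TPM, against 5.72% to 7.59% in the controls. *Cyp2d22*, a relative of the human drug-oxidising CYP2D enzymes, was higher in every Cebpa_ASKO library, at 25.9, 32.7 and 32.2 TPM against 16.1, 20.998 and 21.8 TPM. Its log2 fold change of 0.39 (SE 0.0881) had an adjusted p of 0.0571, and it passed the threshold with total count scaling and in DESeq2. Its leading protein-coding transcript overlapped between genotypes, at 8.47, 10.4 and 9.96 TPM in Cebpa_fl/fl and 11.9, 12.2 and 10.1 TPM in Cebpa_ASKO. The retained-intron transcripts ENSMUST00000229599.1 (1.58, 2.59 and 2.35 against 5.03, 6.47 and 6.56 TPM) and ENSMUST00000230663.1 (2.45, 1.99 and 2.81 against 3.67, 4.27 and 4.66 TPM) did not overlap. The other *Cyp2d22* transcripts overlapped.

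*Cyp3a57*, of the 3a subfamily best known in liver and gut, varied within the controls. Its TPM was 27.6, 1.94 and 32.0 in Cebpa_fl/fl and 45.3, 39.8 and 33.4 in Cebpa_ASKO. The library Cebpa_fl/fl 2 held 130 counts, where the other libraries held 1949 to 2235. The log2 fold change was 0.87 (SE 0.834, adjusted p = 0.646) with that library and 0.32 (SE 0.192, adjusted p = 0.401) without it. Cebpa_fl/fl 2 was also the library with the highest *Cyp2e1*, *Cyp2f2*, *Cyp1b1* and *Cyp26b1*. The remaining members of these families (*Cyp1b1*, *Cyp2ab1*, *Cyp2c23* and *Cyp2s1*) had log2 fold changes from -0.40 to 0.42 and none was called. In *Cyp2ab1*, 1.96 of the 3.25 TPM in Cebpa_ASKO 2 came from a retained-intron transcript with 5.62 counts.

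**Figure D3:**
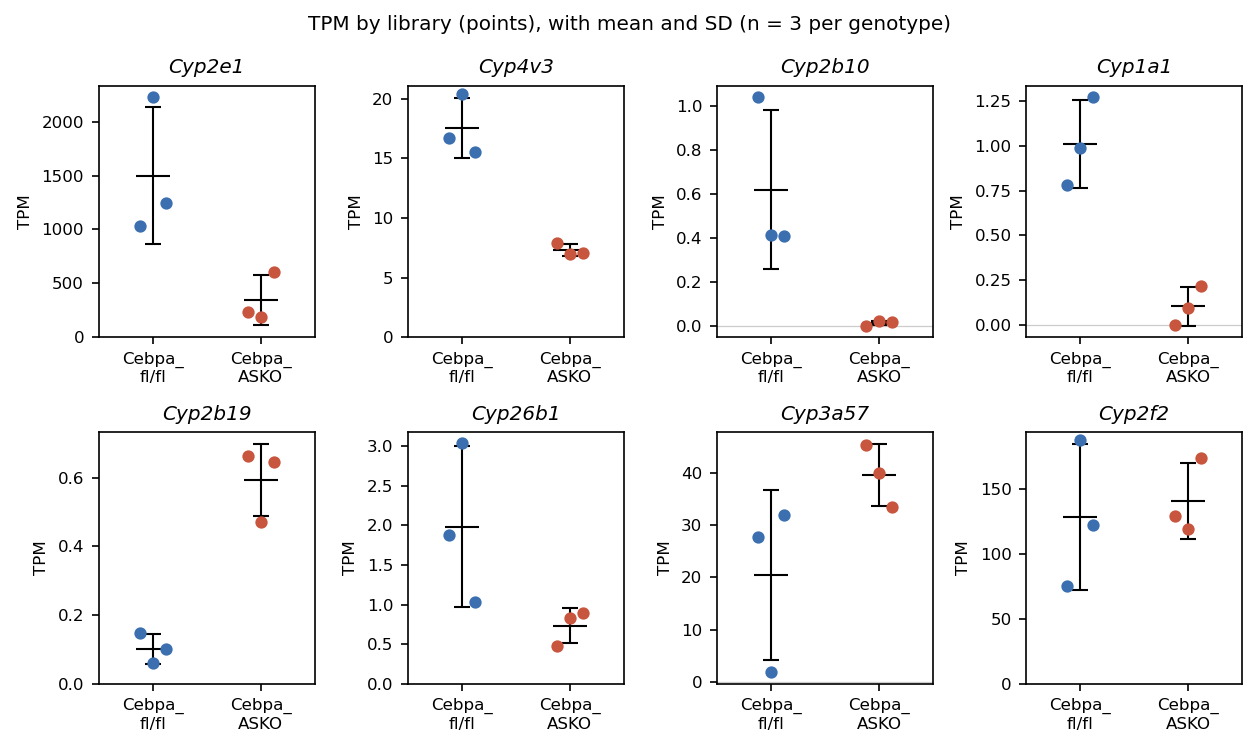
The TPM of 8 P450 genes is shown by library (points), with the mean and SD of each genotype (n = 3), and each panel has its own linear axis. *Cyp2e1*, *Cyp4v3*, *Cyp2b10*, *Cyp1a1* and *Cyp26b1* are lower and *Cyp2b19* higher in all Cebpa_ASKO libraries. *Cyp3a57* has 1 control library at 1.94 TPM, and *Cyp2f2* overlaps between genotypes.

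Fatty acid and eicosanoid oxidisers (family 4, 2j and 2u) were the most numerous role, with 15 members, of which 13 were tested. In edgeR 1 was called lower and none higher, against 3.84% and 1.39% of all tested genes. At an unadjusted p below 0.05, 3 were lower and 3 higher, against 19.8% of all tested genes in either direction. DESeq2 called 2 lower and 2 higher, against 6.33% and 3.72% of its genes. *Cyp4f13* had the highest mean TPM of this role, at 29.7, 33.8 and 32.3 TPM in Cebpa_fl/fl and 30.4, 38.0 and 36.9 TPM in Cebpa_ASKO. Its log2 fold change was -0.02 (SE 0.0859, adjusted p = 0.952). *Cyp4b1*, which oxidises fatty acids and activates some plant toxins, stood at 20.7, 28.5 and 24.2 TPM in the controls. It was above them in every Cebpa_ASKO library, at 31.1, 32.6 and 33.9 TPM, with a log2 fold change of 0.37 (SE 0.0954) and an adjusted p of 0.0833 that missed the threshold. It passed in DESeq2 (adjusted p = 0.0335) and in edgeR when Cebpa_fl/fl 2 was left out (log2 fold change 0.44, adjusted p = 0.0389).

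The 8 *Cyp4f* members, a subfamily that hydroxylates leukotrienes and fatty acids, had divergent values. Within the cluster of 7 on chromosome 17 (chr17:32452723-32947402), log2 fold changes of the tested genes ran from -0.65 to 1.45, and none was called in edgeR, while DESeq2 called *Cyp4f17* lower (adjusted p = 0.00797) and *Cyp4f39* higher (adjusted p = 0.0042). *Cyp4f17* was at the lower end, with 9.03, 11.1 and 15.0 TPM against 8.45, 10.4 and 8.35 TPM (log2 fold change -0.65, SE 0.156, adjusted p = 0.0698). Its libraries separated by genotype in CPM and overlapped in TPM. *Cyp4f39*, whose human counterpart makes the long hydroxylated lipids of the skin barrier, was at the upper end, with 0.344, 0.489 and 0.700 TPM in Cebpa_fl/fl and 1.14, 1.61 and 1.16 TPM in Cebpa_ASKO. Its log2 fold change was 1.45 (SE 0.345, adjusted p = 0.0687), and its libraries did not overlap. Without Cebpa_fl/fl 3 it passed the threshold (log2 fold change 1.80, adjusted p = 0.0487). *Cyp4f16* stood between 10.5 and 14.4 TPM in all libraries (log2 fold change -0.11, adjusted p = 0.651). Reads from these similar genes can be divided wrongly, and the subfamily sum had a log2 fold change of -0.22 (SE 0.0773, adjusted p = 0.180).

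*Cyp4x1*, a P450 known from brain, had 16, 5 and 11 counts in the controls and 39, 26 and 23 counts in Cebpa_ASKO. These libraries did not overlap, and the log2 fold change of 1.77 (SE 0.545) had an adjusted p of 0.134. *Cyp2j6*, an epoxygenase of arachidonic and linoleic acid, stood at 8.05, 9.58 and 10.9 TPM in Cebpa_fl/fl and at 8.09, 7.48 and 8.11 TPM in Cebpa_ASKO. Its log2 fold change was -0.32 (SE 0.127, adjusted p = 0.225), and with its neighbour *Cyp2j9* the subfamily sum changed by -0.30 (SE 0.122, adjusted p = 0.235). The last of this role, *Cyp4a10*, *Cyp4f18* and *Cyp4f15*, had log2 fold changes of -1.13, -0.61 and 0.03 (adjusted p from 0.43 to 0.973). Without Cebpa_fl/fl 3, *Cyp4f18* passed the threshold (log2 fold change -0.94, adjusted p = 0.0405). *Cyp4f14* and *Cyp4f37* were not tested, with at most 14 and 7 counts in any library. In the table of gene TPM, the value of *Cyp2u1* was 2 times the sum over its transcripts, so its level in TPM is uncertain, and its log2 fold change from counts was 0.53 (SE 0.230, adjusted p = 0.268).

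Steps of sterol, steroid, retinoid and vitamin D metabolism were represented by 8 members, none of which was called in edgeR. At an unadjusted p below 0.05, 2 were lower, against 19.8% of all tested genes in either direction. DESeq2 called 1 gene lower, against 6.33% of its genes. That gene was *Cyp26b1*, which breaks down retinoic acid, at 1.88, 3.05 and 1.03 TPM in Cebpa_fl/fl and 0.475, 0.830 and 0.892 TPM in Cebpa_ASKO. Its libraries did not overlap, and the log2 fold change was -1.53 (SE 0.403, adjusted p = 0.0899 in edgeR and 0.00305 in DESeq2). Without Cebpa_fl/fl 3, the lowest control library, edgeR called it lower (log2 fold change -1.85, adjusted p = 0.0347). *Cyp27a1*, the mitochondrial sterol hydroxylase of bile acid synthesis, was the highest of these genes, at 23.9, 30.9 and 26.7 TPM against 22.3, 24.7 and 19.4 TPM. Its log2 fold change was -0.42 (SE 0.137, adjusted p = 0.16), with libraries that separated in CPM and overlapped in TPM. The oxysterol and cholesterol hydroxylases *Cyp39a1*, *Cyp7b1* and *Cyp46a1*, the steroidogenic *Cyp11a1* and the aromatase gene *Cyp19a1* had log2 fold changes from 0.17 to 0.61, with adjusted p from 0.426 to 0.848. *Cyp2r1*, a vitamin D hydroxylase, had a log2 fold change of -0.44 (adjusted p = 0.443). Markers of steroidogenic cells summed to between 31.5 and 42.4 CPM in Cebpa_fl/fl and between 40.7 and 49.3 CPM in Cebpa_ASKO, mostly from *Fdx1*, with 0 of 2 tested called by either tool. *Cyp20a1*, a P450 with no settled substrate, differed little between libraries, at 13.6, 16.2 and 15.3 TPM against 13.0, 14.7 and 16.5 TPM (log2 fold change -0.10, SE 0.0863, adjusted p = 0.594).

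**Figure D4:**
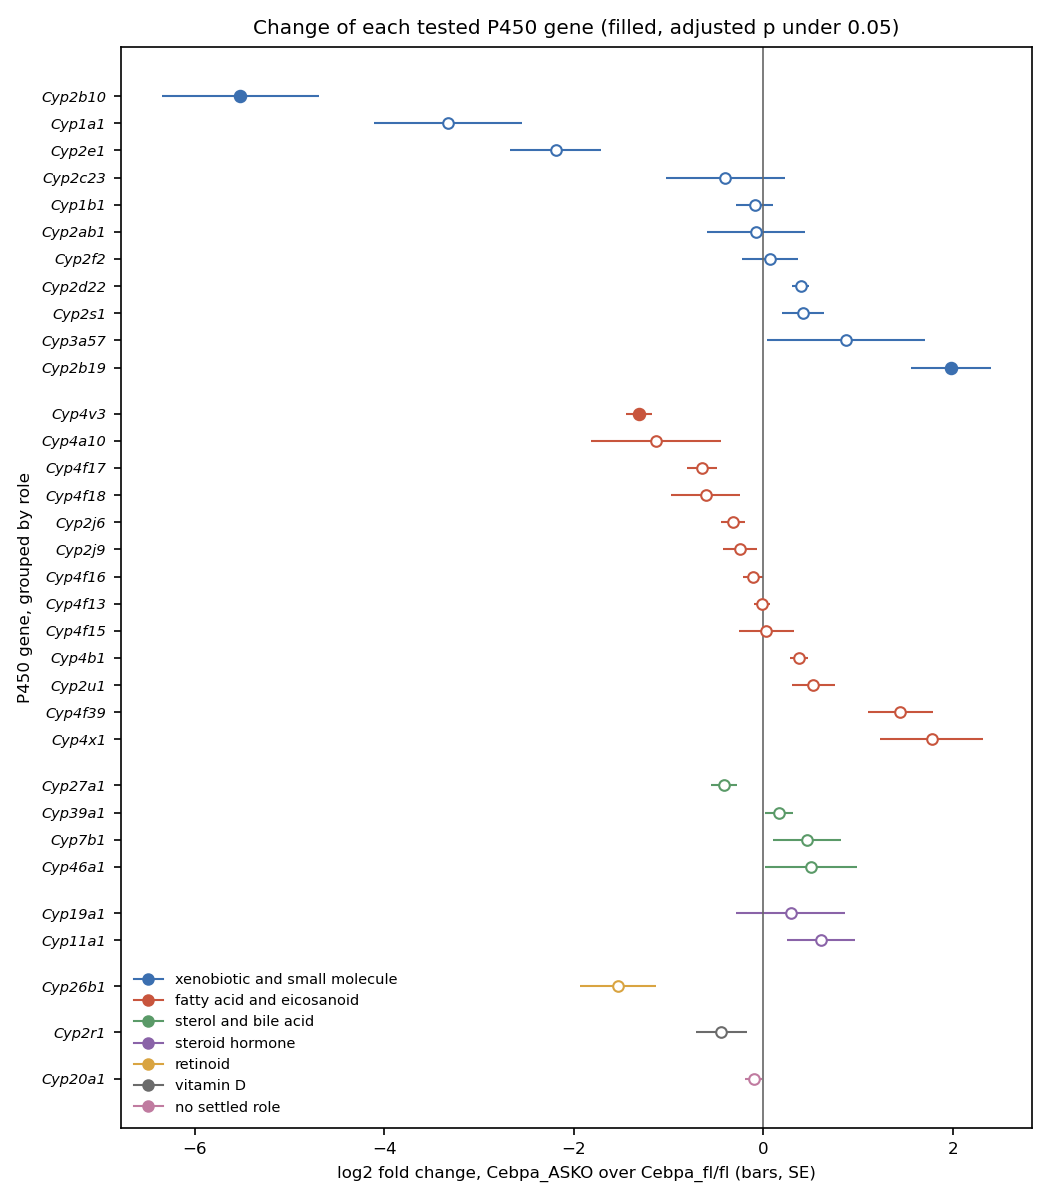
Points give the log2 fold change (Cebpa_ASKO over Cebpa_fl/fl) of the 33 tested P450 genes, with bars for the SE, grouped by role, and filled points mark an adjusted p below 0.05. Filled points are *Cyp2b10* at -5.52, *Cyp4v3* at -1.31 and *Cyp2b19* at 1.98, and each of the larger roles holds genes on both sides of 0.

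The limit of 0.1 TPM fell among genes with few counts. Just inside it were *Cyp4f14* (mean 0.106 TPM) and *Cyp4x1* (mean 0.155 TPM), and just outside it *Cyp8b1* (mean 0.0989 TPM) and *Cyp2c70* (mean 0.0870 TPM). The last 2 had at most 8 and 6 counts in any library. By mean TPM, 11 members were at or above 10, 12 lay between 1 and 10, and 12 were below 1. Between 21 and 24 members reached 1 TPM in each library.

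Genes of the P450 system other than the members were read from fixed lists. Over all tested genes, edgeR called 3.84% lower and 1.39% higher, and 19.8% had an unadjusted p below 0.05 in either direction. DESeq2 called 6.33% of its genes lower and 3.72% higher. Of 9 electron donors, 2 were called lower and none higher in edgeR (2 higher at an unadjusted p below 0.05, none higher in DESeq2). *Por*, the reductase that serves the microsomal P450s, stood at 220, 222 and 264 CPM in Cebpa_fl/fl and at 127, 118 and 114 CPM in Cebpa_ASKO. Its libraries did not overlap, with a log2 fold change of -0.98 (SE 0.109, adjusted p = 0.00471). *Cyb5a*, which encodes cytochrome b5, stood at 291, 368 and 308 CPM against 208, 178 and 173 CPM, with a log2 fold change of -0.79 (SE 0.133, adjusted p = 0.0220). The mitochondrial donors *Fdx1* and *Fdxr* had log2 fold changes of 0.21 (adjusted p = 0.470) and 0.27 (adjusted p = 0.200). None of 14 genes of heme synthesis and breakdown was called in edgeR. At an unadjusted p below 0.05, 3 were lower and 2 higher, and DESeq2 called 1 in each direction. The rate-limiting enzyme gene *Alas1* had 209, 127 and 184 CPM in Cebpa_fl/fl and 381, 288 and 259 CPM in Cebpa_ASKO (log2 fold change 0.84, adjusted p = 0.0973). The P450 genes with other symbols, *Cyp51*, *Ptgis* and *Tbxas1*, were not called by either tool, with none at an unadjusted p below 0.05, and had log2 fold changes of -0.25, 0.57 and 0.08.

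Among 9 tested xenobiotic and sterol sensors, the oxysterol receptor gene *Nr1h3* was called lower (log2 fold change -1.31, SE 0.0782, adjusted p = 0.000724). For this list and those below, the shares of all tested genes were 3.84% lower and 1.39% higher in edgeR. They were 6.33% and 3.72% in DESeq2, and 19.8% had an unadjusted edgeR p below 0.05 in either direction. The CPM of *Nr1h3* was 73.3, 79.7 and 79.8 in the controls and 32.2, 31.8 and 30.1 in Cebpa_ASKO. The pregnane receptor gene *Nr1i2* had 0 counts in every library, and the phenobarbital-responsive receptor gene *Nr1i3* was not tested, at no more than 0.0951 CPM. Of 11 genes for epoxide hydrolases and eicosanoid synthesis, *Ephx2*, whose enzyme hydrolyses the epoxides that P450s form from fatty acids, and the prostaglandin E synthase gene *Ptges* were called lower and none higher in edgeR, while DESeq2 called 2 lower and 2 higher. *Ephx2* had a log2 fold change of -1.08 (SE 0.125, adjusted p = 0.00527), and *Ptges* of -1.59 (SE 0.264, adjusted p = 0.0218). At an unadjusted p below 0.05, 2 were higher, the epoxide hydrolase gene *Ephx1* (log2 fold change 0.61, adjusted p = 0.12) and the lipoxygenase gene *Alox15* (1.24, adjusted p = 0.147), and the libraries of neither overlapped between genotypes. Of 17 retinoid genes, the carrier gene *Rbp4* was called lower (log2 fold change -3.02, SE 0.264, adjusted p = 0.00202), and none was called higher in edgeR, while DESeq2 called 2 lower and 2 higher. Of the uncalled genes, *Aldh1a1*, for a retinaldehyde dehydrogenase, had a log2 fold change of -1.01 (adjusted p = 0.0760), *Dhrs9*, for a retinol dehydrogenase, of 0.96 (adjusted p = 0.0532) and *Crabp2*, for a retinoic acid carrier, of 0.98 (adjusted p = 0.0872). Of 12 tested steroid and oxysterol genes, *Sult1a1* (-2.02), *Hsd11b1* (-0.85) and *Hsd3b7* (-0.54) were called lower, with the log2 fold change in brackets and adjusted p from 0.00388 to 0.0316.

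The conjugation enzymes, which act on the products of P450s, had 7 of 25 tested genes called lower, where 3.84% of all tested genes were, and none higher in edgeR (2 higher at an unadjusted p below 0.05, none in DESeq2). The steroid and oxysterol list had 3 of 12 lower and the electron donors 2 of 9. All 7 encode cytosolic or membrane-bound glutathione transferases, which also make up most of the list: *Mgst2* (log2 fold change -3.13), *Gsta3* (-3.05), *Gstz1* (-2.87), *Mgst3* (-1.71), *Gstm7* (-1.27), *Mgst1* (-1.06) and *Gsto1* (-0.73). *Gstz1* stood at 554, 536 and 663 CPM in Cebpa_fl/fl and at 77.4, 76.7 and 85.1 CPM in Cebpa_ASKO. No gene of these pathway lists was called higher in edgeR, while DESeq2 called 1 higher among heme genes, 2 among epoxide and eicosanoid genes and 2 among retinoid genes. The median log2 fold changes of the lists ran from -0.32 (conjugation) to 0.30 (sensors), against 0.02 for all tested genes. The adipocyte marker sum moved in the same direction as these falls, and its part in them was not tested.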

How the data were processed

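Bulk RNA-seq of whole iWAT from 3 Cebpa_fl/fl and 3 Cebpa_ASKO mice was analysed, with genotype and replicate taken from the sample labels. For each library the authors deposited an estimated count and a TPM for every transcript, made with kallisto 0.44.0 per the submitters' processing notes, and a table of TPM summed by gene symbol. The notes list the builds GRCm38.p6 and GRCh38.p12 with no role given. Estimated counts were summed per gene symbol with GENCODE M21 (116816 of 118489 transcripts matched, 99.5% to 99.6% of the counts) and rounded to whole numbers.

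Cebpa_ASKO was compared with Cebpa_fl/fl by edgeR's quasi-likelihood test (TMM scaling, filterByExpr). p-values of 16069 genes were adjusted by Benjamini-Hochberg, and calls required a value below 0.05. Summed levels were compared by exact permutation over the 20 arrangements of the libraries. SEs are the absolute log2 fold change divided by the square root of F. The alternatives were DESeq2, other scalings, filters on low values, limma on log2(TPM + 1) and log2(TPM + 0.1) (which understate changes of low genes), the replicate number as a block, subfamily sums, and each library left out in turn. Tests ran in R 4.3.3 with edgeR 4.0.16, DESeq2 1.42.0 and limma 3.58.1, and tables were built in Python 3.11.15 with scipy 1.17.1 and pandas 2.3.3. Promoter windows came from RefSeq (GRCm38.p6).

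The members, roles and gene lists were chosen with earlier results of these data known. Named with values were the called members, the 12 with the highest mean TPM, those with no overlap between genotypes that changed by 1 or more on the log2 scale, the 2 on each side of the TPM limit and genes of the lists; others named by range or for a single value were chosen after their values were seen. Replicates differed by more than counting noise, so each mouse counted as 1 sample. The edgeR p-values set the genotype difference against the variation between these mice, estimated with information shared across genes. Intervals cover counting error only.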

Additional observations from a re-analysis of the deposited data

How the results depend on the processing

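Of 258 values for the 18 named members under the 15 alternatives, 221 kept their direction and their side of the threshold, 13 lost the call, 16 gained it and 8 changed sign, all 8 in *Cyp2f2* and *Cyp4f13*. *Cyp4v3* was called in all 15 alternatives, *Cyp2b10* in 7 of the 12 that gave it a value, *Cyp2b19* in 4 of 12 and *Cyp2e1* in 5 of 15. The members called lower (2 in the reported fit) numbered 6 with DESeq2, 1 with at least 10 counts in every library, 1 with the replicate block, 1 with members of a mean TPM of at least 1, and 1 to 4 with 1 library left out. The members called higher (1 in the reported fit) numbered 4 with DESeq2, 2 with total count scaling, 0 with all genes of at least 1 count, 0 with at least 10 counts in every library, 0 with limma on log2(TPM + 1) or log2(TPM + 0.1), 0 with the replicate block, 0 with members of a mean TPM of at least 1, and 0 to 1 with 1 library left out. The filters on counts and TPM test 27 and 24 members and leave out *Cyp2b10* and *Cyp2b19*, and the cause of the other changes was not tested. Subfamily sums called (1 in the reported fit, *Cyp4v*) numbered 6 with DESeq2 and 1 to 2 with 1 library left out.

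The log2 fold change of *Cyp2f2* (0.07) ran from -0.18 to 0.39 with 1 library left out, turning negative without Cebpa_fl/fl 1 (-0.18) and without Cebpa_ASKO 3 (-0.07). That of *Cyp4f13* (-0.02) was 0.037 with total count scaling, 0.13 with limma on log2(TPM + 1), with and without the filter, 0.13 with limma on log2(TPM + 0.1), and -0.072 to 0.035 with 1 library left out. Both are within their SE of 0 in the reported fit. Over all genes, 617 were called lower and 223 higher, against 1131 and 665 with DESeq2, 285 and 74 with unfiltered limma, 296 and 74 with the replicate block, and 278 to 658 and 33 to 264 with 1 library left out. Same-numbered libraries of the 2 genotypes did not deviate together (correlations 0.07, 0.03 and -0.20), so the numbers are not taken to pair mice, and under the block the adjusted p of *Cyp2b10* was 0.0547. At 3 mice per genotype and few counts, differences in the 12 members below 1 TPM were measured with little precision.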
